A study of Homo sapiens with 24 samples.

Results

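The regions described here are alternative splice site bins: short pieces of exon that are kept or lost depending on which of several neighbouring splice sites is used. The authors divided each gene model into numbered bins and gave each bin a class. A bin was taken when its class text held "pss", held no "_DI_" (the mark of a detained intron) and named a single class. This gave 5561 of the 164219 bins in the tables, in 3722 of 13236 genes or gene groups. A further 4455 bins carried such a class together with others and were left out. The data come from HEK293T cells, an established human embryonic kidney line with no allele or transgene named in the labels, grown in plates, given fresh medium and then treated for 2 h or 6 h. The treatments were 10 µM OSMI-2, which blocks OGT, the enzyme that adds O-GlcNAc to proteins, or 5 µM TMG (Thiamet-G), an inhibitor of the O-GlcNAcase that the tables name MGEA5, and DMSO, the solvent, was the control of each drug and time. The labels list 24 samples in 8 groups of 3, and the tables hold 23 libraries, since the OSMI-2 6 h table has 2 treated libraries, a and b. The other labelled sample of that group was not analysed here.

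O-GlcNAc is a single sugar, N-acetylglucosamine, that OGT attaches to serines and threonines of proteins in the nucleus and cytoplasm, and OGA removes it; many splicing factors carry it. An intron begins at a 5′ splice site, usually GT, which the U1 and later the U6 RNA recognise, and ends at a 3′ splice site, usually AG, which U2AF and the U2 particle recognise. Where an exon has several competing 5′ or 3′ sites, the choice between them lengthens or shortens the exon. Detained introns are introns that stay in polyadenylated RNA held in the nucleus.

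The class names divided the bins by position, which was checked on the coordinates for bins beside a shared bin. There were 2031 A3pss_Proximal bins, and 2015 of them lay directly upstream of a bin that carries both forms of the same event, here called the shared bin. They are counted when the upstream 3′ site of a pair is used. The 1906 A5pss_Distal bins mirrored them: 1698 lay directly downstream of a shared bin and are counted when the downstream 5′ site is used. In the 525 T3pss_Proximal bins the extension was 3 bases wide in 519, and all 28 T5pss_Distal bins were 3 bases wide. The remaining bins were 446 Hanging5pss, 393 A5pss_Proximal, 183 A3pss_Distal, 44 T3pss_Distal and 5 T5pss_Proximal bins. The median width was 30 bases for A3pss_Proximal and 79 bases for A5pss_Distal bins. A width that is a multiple of 3, which leaves the reading frame as it is, was found in 41.0% of A3pss_Proximal and 40.8% of A5pss_Distal bins.

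Sequences show what such an extension holds. Extensions were matched to GENCODE v29 transcripts (GRCh38) by gene, strand and the widths of the extension and shared bin, not by coordinates. Where both sites were found in the annotation, all 415 matched A3pss_Proximal extensions ended in AG. Likewise, 306 of 308 matched A5pss_Distal extensions began with GT. Such a match requires an annotated splice site where the extension meets the shared bin, so these letters follow from the matching. They are a description and no test. The shared bins beside them ended in AG in 54.9% and began with GT in 15.9%. The letters AG and GT were searched on the transcript strand alone, at the last and the first 2 bases. In 405 matched 3-base T3pss_Proximal extensions the letters were CAG in 53.3%, AAG in 28.6%, GAG in 11.9% and TAG in 6.17%. The examples below give up to 18 bases of the extension in capitals and 12 bases of the shared bin in lower case, 5′ to 3′ on the transcript strand. OGT_E024 is shown because OGT is the target of OSMI-2, UBL5_E004 for the 3-base class, and the others because they passed in the comparisons below. Those of STAMBP and MARCH6 matched with both sites, and the others by the longer exon alone.
OGT_E024, 3-base upstream 3′ site in OGT: GAGagactcttgctt
TUBG2_E010, last 18 bases of a 68-base 3′ extension: CCCGTGGGGCCCCGCCAGcatccaggtggc
STAMBP_E008, first 18 bases of a 181-base 5′ extension: gagtttgggaagGTAGACCCTGGCCTAGGT
MARCH6_E014, first 18 bases of a 644-base 5′ extension: tttgaagaacacGTGAGTATAATACTTTTA
PCBP2_E002, 8-base 5′ extension: agaggtgaaaggCTATTGGG
UBL5_E004, 3-base downstream 5′ site: tgtcctgaagaaGTG
The capitals of both 3′ extensions end in AG. Those of STAMBP, MARCH6 and UBL5 begin with GT, and those of PCBP2 do not, so the match of PCBP2 by the longer exon alone is uncertain. Among extensions matched by the longer exon alone, 97.8% of 894 A3pss_Proximal ended in AG and 88.9% of 342 A5pss_Distal began with GT.

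Total counts were 39.5 M to 100.2 M per library, and the alternative splice site bins took 1.94% to 2.11% of them. Each bin was compared as its count over the gene's other counts outside detained introns, so a change is a change in the bin's share of its gene. Bins entered the test with a mean of 10 or more counts: 2909 of the 5561 were tested in every table and 1676 in none. Libraries were not alike beyond their groups. In the OSMI-2 6 h table, detained introns took 1.21%, 0.983% and 0.756% of all counts in DMSO libraries a, b and c, and 0.286% and 0.328% with OSMI-2, whereas they took 0.232% to 0.278% in all 6 libraries of the OSMI-2 2 h table and 0.377% to 0.669% in the 12 libraries of the TMG tables. The 6 h DMSO library a also stood apart in the slope of gene counts on GC content (0.356 against 0.917 to 1.04 in the other 4 libraries of that table). VIM, which HEK293T cells express, was at 306 to 787 CPM (counts scaled to library total) and COL1A1, a fibroblast marker, at 6.28 to 20.4. ALB, PTPRC, HBB and KRT5 are not among the genes of the tables. NEFM, another gene of the line, was low, at 0.300 to 2.20. Further genes of the line were NEFL at 15.7 to 31.3, INA at 7.71 to 35.5 and LIN28B at 4.06 to 113. The ranges of NEFL, INA and LIN28B overlapped that of COL1A1. Nothing in the labels says whether replicates were separate cultures, so p-values measure the spread between these libraries, which may be technical.

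After 2 h of OSMI-2, none of 3113 alternative splice site bins passed an adjusted p of 0.05 in edgeR's quasi-likelihood test. The share over all bins tested was 0.00167%. At an unadjusted p under 0.05 there were 124 such bins, and DESeq2 and limma called none either.

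After 6 h of OSMI-2, 143 of 3430 alternative splice site bins in 135 genes passed, and falls outnumbered rises. There were 117 falls and 26 rises. Over all bins tested 5.87% were called, 0.813% higher and 5.06% lower, and without the detained introns 0.841% were higher and 2.29% lower. Of the alternative splice site bins, 0.758% were higher and 3.41% lower, so their share of falls was above that of bins outside detained introns and their share of rises was near it. Falls were large and from low counts, with a median log2 change of -1.65 and a median of 25.0 counts, and rises were small and from higher counts, with medians of 0.45 and 190 counts. All 143 bins had every OSMI-2 library beyond every DMSO library. Bins selected by a test of 3 against 2 libraries tend to be apart in this way, so this is no further evidence. The share of such bins among all bins was not computed. The median log2 change over all 3430 bins was 0.01, as it was over all bins tested. The number called was 51 without OSMI-2 library b and 70 without OSMI-2 library a, which each leave 1 treated library that is assumed to vary like the controls. A minimum of 50 counts left 20 rises and 25 falls. Of the 36 called bins named below, 11 passed whichever library was left out, all of them falls: ATXN7L2_E008, RBM39_E005, CEP164_E042, NPDC1_E005, HMGN2_E004, METTL17_E014, RPS18_E002, PPP1R16A_E006, ZNF783_E023, MAPK12_E007 and SNRNP200_E018.

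Most falls were in the extension classes. Among A3pss_Proximal bins, 61 of 1454 fell and 1 rose, and among A5pss_Distal bins 50 of 881 fell and 13 rose. The T3pss_Proximal sites, nearly all 3 bases wide, had 1 fall and no rise in 355 bins. Of the A3pss_Distal bins, 3 of 167 rose and 1 fell, and of the A5pss_Proximal bins, 4 of 287 rose and 1 fell. Only 0 of 183 and 2 of 393 bins of these classes lay beside a shared bin. Which site their counts stand for was therefore not checked, and a switch between sites was not tested. In the 228 Hanging5pss bins 4 rose and 3 fell. For comparison, 79 of 3606 cassette exon bins fell and 21 rose, and 133 of 49562 constitutive internal exon bins fell and 143 rose. Shares of falls above the 3.41% of the alternative splice site bins were found in constitutive first or last exons (376 of 8052, 4.67%), bins of several classes (334 of 9213, 3.63%) and bins of other classes (572 of 6139, 9.32%). These shares were not tested against each other.

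**Figure D1:**
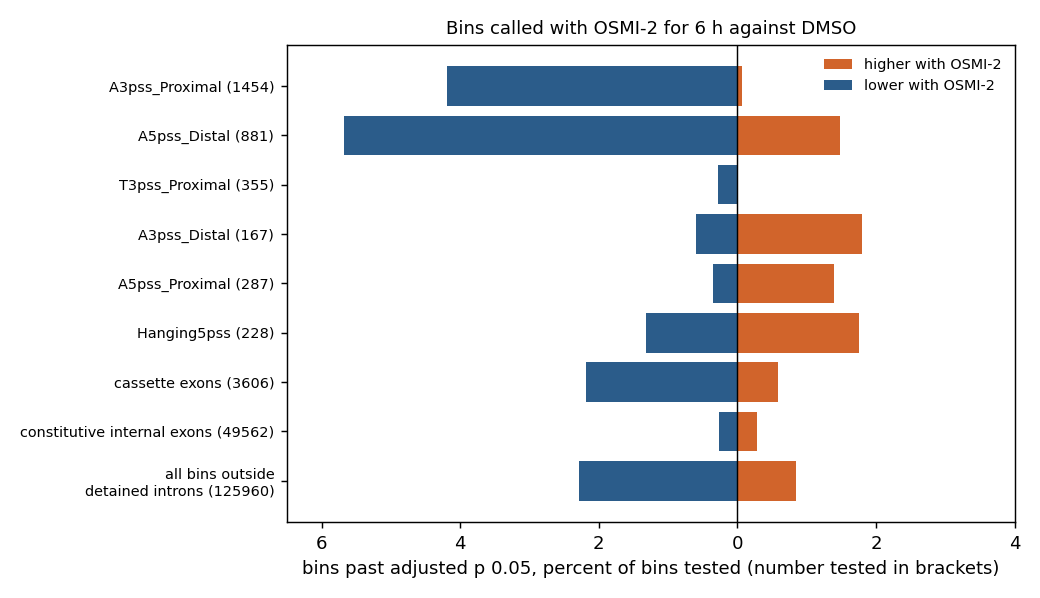
Bins past an adjusted p of 0.05 with OSMI-2 for 6 h against DMSO, as a percentage of the bins tested in each class, with falls to the left and rises to the right. Falls reached 4.195% of A3pss_Proximal and 5.68% of A5pss_Distal bins, and 0.282% of T3pss_Proximal bins.

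Falls were most frequent among sites that were little used. Use was taken as the extension's counts over those of its shared bin in the 6 DMSO libraries of the TMG tables, which the OSMI-2 test did not use. Rarely used extensions were those under 10% with a mean of 10 or more counts in those same 6 libraries, chosen after earlier results were known: 62 A3pss_Proximal and 97 A5pss_Distal bins, 159 in all. With OSMI-2 for 6 h, 111 of them could be tested, 46 fell and none rose, with a median log2 change of -0.77. Of the 1965 tested extensions used at 10% or more, 34 fell and 12 rose, with a median log2 change of 0.00. A bin can pass the minimum count through its DMSO libraries alone, so the count among tested bins is a description.

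The same 159 bins were therefore followed in every library without any minimum. Counts were pooled over the bins of a class, so bins in genes with many counts weigh most. The 97 downstream 5′ extensions include HMGN2_E004 and RPS18_E002, whose counts are uncertain, as given below. In the OSMI-2 6 h table, the 62 upstream 3′ extensions had 3.77%, 3.17% and 2.72% of the counts of their shared bins in DMSO libraries a, b and c. They had 1.35% and 1.52% with OSMI-2. The groups did not overlap. The 97 downstream 5′ extensions had 2.72%, 2.05% and 1.96% in DMSO and 1.31% and 1.32% with OSMI-2, again without overlap. At 2 h the upstream 3′ extensions were at 1.10%, 1.17% and 1.18% in DMSO and 1.03%, 0.9995% and 1.31% with OSMI-2. The low level of the 6 h OSMI-2 libraries was thus near that of both 2 h groups, and the 6 h DMSO libraries were the highest group of that experiment. In the TMG tables the upstream 3′ extensions ran from 1.82% to 2.09% in DMSO and 2.05% to 2.30% with TMG at 2 h, and from 2.26% to 2.92% and 2.66% to 2.95% at 6 h. The downstream 5′ extensions were at 1.95% to 2.01% in DMSO and 2.10% to 2.24% with TMG at 2 h, without overlap, and at 2.05% to 2.32% and 2.07% to 2.26% at 6 h, with overlap. The bins were chosen on those DMSO libraries, so these values are a description.

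**Figure D2:**
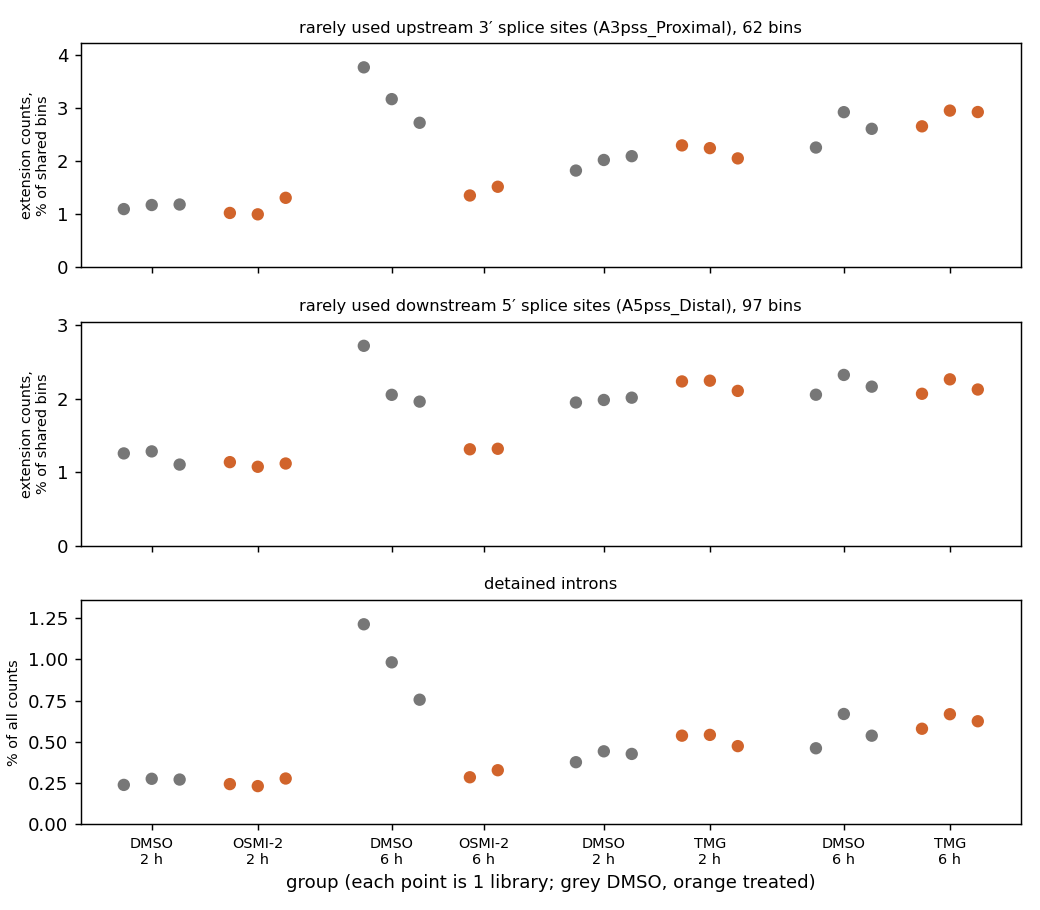
Pooled counts of the rarely used extension bins as a percentage of their shared bins in each of 23 libraries (upper 2 panels), and the percentage of all counts in detained introns (lower panel); each point is 1 library. The 3 DMSO libraries of the OSMI-2 6 h table are the highest of the OSMI-2 experiment in all panels.

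Detained introns moved with this result, and library by library the order was the same in the 6 h DMSO group: a, then b, then c, for both kinds of extension and for detained introns. The falls were most frequent beside detained introns: 16 of 26 tested rarely used extensions that abut one fell, with a median log2 change of -1.45. In genes with a detained intron elsewhere 13 of 39 fell, with a median of -0.59. In genes in which the authors marked no detained intron, 17 of 46 fell and none rose, with a median of -0.54. Without DMSO library a, 41 of 106 rarely used extensions fell and 1 rose; without OSMI-2 library a, 27 fell, and without OSMI-2 library b, 19. Whether reads from unspliced RNA take part in these counts was not tested. A difference in RNA level per cell and a difference in how many cells use a site cannot be told apart in these bulk libraries.

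**Figure D3:**
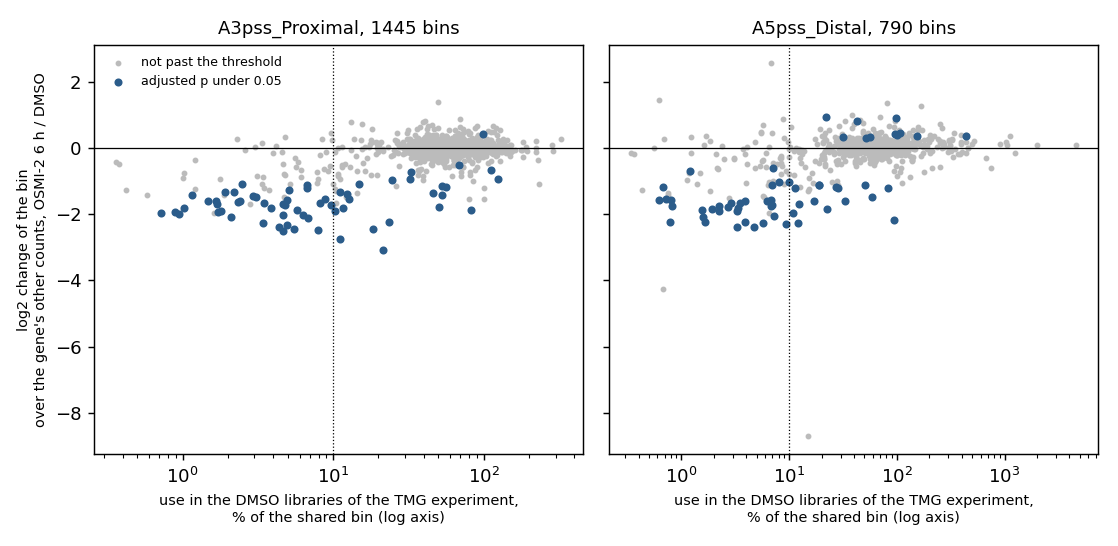
The log2 change with OSMI-2 for 6 h of each tested extension bin against its use in the DMSO libraries of the TMG experiment (log axis); blue points passed an adjusted p of 0.05 and the dotted line is at 10%. To the left of the line 39 of 85 A3pss_Proximal and 33 of 99 A5pss_Distal bins fell, here counted without a minimum in the TMG libraries.

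Among upstream 3′ sites with 50 or more counts, the largest fall was in ATXN7L2, a member of the ataxin-7 family. The 647-base extension ATXN7L2_E008 (hg19 chr1:110031905-110032551) held 6.12%, 5.74% and 5.90% of the gene's counts in DMSO libraries and 1.82% and 1.79% with OSMI-2 for 6 h. The log2 change was -1.77 ± 0.18 (SE, n = 3 and 2; edgeR adjusted p = 8.51e-05). Set against its shared bin, the extension went from 76.2%, 63.9% and 66.1% to 17.4% and 18.1%. At 2 h it was at 1.28% to 1.78% in DMSO and 1.19% to 2.85% with OSMI-2, and these ranges overlap.

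RBM39_E005 (hg19 chr20:34295124-34295914) is a 791-base extension in the gene of a U2AF-related splicing factor. It held 0.973%, 0.9998% and 1.06% of the gene's counts in DMSO and 0.318% and 0.358% with OSMI-2 for 6 h, a log2 change of -1.55 (edgeR adjusted p = 0.000458). The DMSO libraries were again above both treated ones. At 2 h RBM39_E005 was at 0.202%, 0.215% and 0.266% in DMSO and 0.254%, 0.672% and 0.394% with OSMI-2, and these ranges overlap. The difference of -2.61 between its effects at 6 h and 2 h thus also holds the higher 2 h OSMI-2 values. CEP164_E042 (hg19 chr11:117282014-117282510), in a gene for a centriole protein that cilia need, fell from 1.98%, 2.16% and 2.03% to 0.874% and 0.699%. It abuts a detained intron. GALNT16_E017, which also abuts one, is in a gene for an enzyme that starts mucin-type O-glycosylation and fell by 1.35 on the log2 scale, with DMSO libraries at 9.32%, 4.96% and 4.91%. In NPDC1 both of 2 upstream 3′ sites fell, E005 by 1.34 and E003 by 1.28. The 1 rise in this class was TUBG2_E010, in a gene for a gamma-tubulin, from 17.4%, 18.5% and 20.9% to 23.8% and 24.2%. Against its shared bin it was at 94.0% to 102% in DMSO and 97.6% and 103% with OSMI-2, and there the groups overlapped.

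Among downstream 5′ sites with 50 or more counts, the largest fall was a 6-base extension in HMGN2, a protein that binds nucleosomes. HMGN2_E004 (hg19 chr1:26800224-26800229) held 0.690%, 0.419% and 0.374% of the gene's counts in DMSO and 0.0974% and 0.158% with OSMI-2 for 6 h. The log2 change was -1.89 ± 0.26 (SE, n = 3 and 2; edgeR adjusted p = 0.000609). Against the shared bin it was 6.14%, 3.68% and 3.23% in DMSO and 0.888% and 1.35% with OSMI-2. METTL17_E014 (68 bases), in a gene for a mitochondrial methyltransferase-like protein, fell by 1.70. MARCH6_E014, in a gene for a ubiquitin ligase of the endoplasmic reticulum, fell by 1.61, and its treated libraries were far apart, at 0.159% and 0.547%. RPS18_E002, in a gene for a protein of the small ribosomal subunit, fell by 1.54, and PPP1R16A_E006, in a gene for a protein phosphatase 1 subunit, by 1.47. HMGN2 and RPS18 have many processed copies in the genome, so their bin counts are uncertain.

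Genes of the splice site machinery with a rarely used 5′ extension that fell were SNRNP200, SF3A1 and PRPF8, all from few counts (a mean of 17.0 to 21.6). SNRNP200, the U5 helicase that unwinds U4 from U6, had E018 at 2.28%, 1.59% and 1.93% of its shared bin in DMSO and 0.319% and 0.595% with OSMI-2. SF3A1 is a subunit of the U2 particle, and its E013 went from 4.81%, 2.59% and 3.75% to 0.707% and 1.20%. In PRPF8, the U5 protein at the centre of the spliceosome, the 4-base E008 went from 0.794%, 0.748% and 0.917% to 0.211% and 0.270%. The groups were apart in all 3, but the bins were named because they passed, so this is no further evidence. The bins of SNRNP200 and PRPF8 abut a detained intron.

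Rises among downstream 5′ sites were smaller, and several of those named here depended on the gene-wide denominator. HSPA1B_E002, given below, was also higher against its shared bin. PCBP2_E002 (8 bases), in a gene for a poly(C)-binding protein, rose by 0.92 on the log2 scale, MAPK12_E039 by 0.91, POLG2_E012 by 0.83, STAMBP_E008 by 0.47 and TROAP_E002 by 0.43. MAPK12 encodes a p38 kinase, POLG2 a subunit of the mitochondrial DNA polymerase and STAMBP an endosomal deubiquitinase. Against the shared bin, POLG2_E012 was at 43.7%, 42.2% and 51.0% in DMSO and 52.8% and 46.7% with OSMI-2, with overlap, and PCBP2_E002 at 20.3% to 22.4% and then 23.5% and 25.5%, without. For STAMBP_E008 the use against the shared bin was 112%, 126% and 112% in DMSO and 103% and 106% with OSMI-2, which is the other direction. TROAP_E002 was at 99.7%, 96.8% and 95.2% and then 97.2% and 97.0%, with overlap. With abutting bins as the denominator, 3 rises and 112 falls passed in 2574 bins, but fewer bins could be tested on that scale. Of the 26 rises and 117 falls, 14 rises and 6 falls were in the 826 bins with no shared bin beside them.

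The remaining classes had few called bins. OGT_E002 (hg19 chrX:70756058-70756208), an A3pss_Distal bin of the drug's target gene, held 1.68%, 1.63% and 1.69% of the gene's counts outside detained introns in DMSO and 2.24% and 2.67% with OSMI-2 for 6 h. The log2 change was 0.57 ± 0.13 (SE, n = 3 and 2; edgeR adjusted p = 0.0240). It did not pass with DESeq2 or limma, or without DMSO library a or b or OSMI-2 library a or b. This is a rise in share within a gene that fell: scaled to library size by TMM, the bin's counts fell by 1.59. At 2 h it was 1.52%, 1.29% and 1.24% against 2.13%, 1.76% and 1.64%, with no overlap and a log2 change of 0.46 ± 0.18 that did not pass (edgeR adjusted p = 1). In the TMG tables it ran from 3.03% to 3.57% in all 12 libraries. OGT_E024, the 3-base site shown above, had a log2 change of 0.01 at 2 h and 0.16 at 6 h with OSMI-2 and of -0.04 at both times with TMG, and passed in no table. MGEA5 has no bin of this kind.

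ACIN1_E023, in a gene for a splicing-associated nuclear protein, rose by 0.23 and NIPA1_E005, an 11671-base bin in a magnesium transporter gene, fell by 1.13; BMS1P20_E001 rose by 0.42 in a pseudogene, whose reads are uncertain. Among A5pss_Proximal bins, DDX52_E002, HDAC5_E032, PRRT3_E002 and HMGB3_E005 rose by 0.68, 0.66, 0.41 and 0.28, and ZNF783_E023 fell by 1.38. DDX52 encodes an RNA helicase and HDAC5 a histone deacetylase. The Hanging5pss bins RIOK1_E001, COX11_E007 and TPM4_E001 rose by 0.52, 0.52 and 0.50, in genes for a kinase of ribosome maturation, a copper chaperone of cytochrome oxidase and a tropomyosin. BRD2_E001, in a bromodomain protein gene, fell by 0.62. SCO1_E007, a T3pss_Distal bin in another copper chaperone gene, rose by 0.52. The 1 called 3-base site was MAPK12_E007, which fell from 2.01%, 1.51% and 1.75% of the gene's counts to 0.792% and 0.831%. Its use against the shared bin was 66.1%, 60.7% and 67.0% in DMSO and 65.2% and 56.0% with OSMI-2, and these overlapped.

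**Figure D4:**
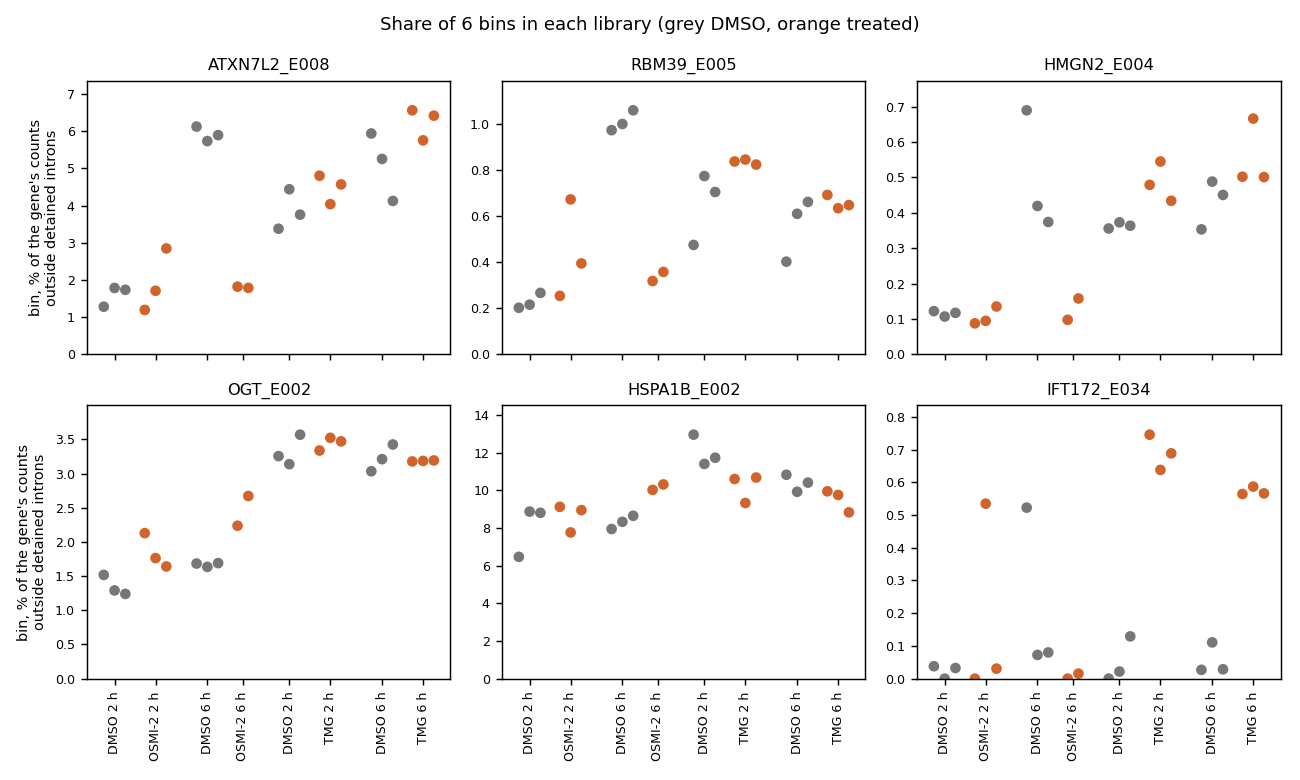
Share of the gene's counts outside detained introns held by 6 named bins in each of 23 libraries; each point is 1 library, grey for DMSO and orange for treated. In the OSMI-2 experiment, ATXN7L2_E008, RBM39_E005 and HMGN2_E004 are higher in all 3 of the 6 h DMSO libraries than in any other library.

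Few of these bins passed with TMG. At 2 h, 5 of 3625 passed, 3 higher and 2 lower, against 0.179% of all bins tested (0.156% higher and 0.0234% lower). At 6 h, 1 of 3474 rose, against 0.0181% of all bins. With so few, each is named, and MTOR_E042 was chosen after its values were seen. Without any 1 of the 6 libraries of the 2 h table, 1 to 6 bins passed, IFT172_E034 among them each time, and DESeq2 and limma called none at 2 h. RPS10_E006, in a small-subunit ribosomal protein gene, rose at 2 h from 0.857%, 0.910% and 0.925% to 1.04%, 1.05% and 1.05%, a log2 change of 0.23. ZNF714_E007 rose by 0.31, from 54.4%, 58.1% and 56.3% to 60.0%, 63.0% and 61.6%. HSPA1B_E002 (hg19 chr6:31795803-31795901) is a 99-base bin that the authors class as A5pss_Distal, in a gene for the inducible Hsp70. Whether a splice site is chosen there was not tested. It fell at 2 h by 0.27 ± 0.05 (SE, n = 3 and 3; edgeR adjusted p = 0.0253), from 13.0%, 11.4% and 11.7% to 10.6%, 9.33% and 10.7%. With OSMI-2 for 6 h the same bin rose by 0.32, from 7.95%, 8.33% and 8.65% to 10.0% and 10.3%. Against the shared bin, the TMG and DMSO libraries at 2 h overlapped (28.1% to 31.2% and 29.7% to 34.8%). HSPA1B has the near-identical neighbour HSPA1A, so the counts of both are uncertain.

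IFT172_E034 (hg19 chr2:27685960-27685963) was called with TMG at both times. It is a 4-base 5′ extension in a gene for a protein of intraflagellar transport, the traffic along cilia. At 2 h it held 0%, 0.0216% and 0.129% of the gene's counts in DMSO and 0.746%, 0.638% and 0.688% with TMG, or 0, 1 and 5 counts against 29, 23 and 28. At 6 h it held 0.0269%, 0.111% and 0.0286% in DMSO and 0.564%, 0.587% and 0.566% with TMG, or 1, 4 and 1 counts against 20, 18 and 17. At both times the bin reached the minimum mean of 10 counts through its TMG libraries alone. Its mean at 6 h was 10.2, and without any 1 TMG library it could not be tested there. The 2 calls are therefore a description of these libraries. The log2 changes were 3.74 ± 0.46 and 3.29 ± 0.45 (SE, n = 3 and 3; edgeR adjusted p = 0.000463 and 0.00356). Yet in the OSMI-2 experiment it was at 0.523% in 6 h DMSO library a and 0.535% in 2 h OSMI-2 library b, and at 0% to 0.0801% in the other 9 libraries. These 2 libraries without TMG thus came near the level seen with TMG. Against the shared bin they were at 34.1% and 43.5%, within the 32.7% to 45.2% of the TMG libraries.

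MTOR_E042 (hg19 chr1:11269351-11269368), an 18-base 5′ extension in the gene of the growth-control kinase, was the other bin called lower with TMG at 2 h (edgeR adjusted p = 0.0171). Its counts were 32, 52 and 0 in DMSO and 0 in all 3 TMG libraries, so DMSO library c did not differ from the treated ones. In the OSMI-2 2 h table it had 27 counts in DMSO library b and 55 in OSMI-2 library b, and 0 or 1 in the other 4. The counts thus differed as much between libraries of 1 group as between groups.

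The difference between effects was tested directly. The effects of OSMI-2 and TMG at 6 h differed in 121 of 3548 alternative splice site bins, 39 with the higher change under OSMI-2 and 82 with the lower, against 4.83% of all bins tested and 2.57% of bins outside detained introns. At 2 h they differed in 0 of 3477 (0.00223% of all bins). For OSMI-2, the effect at 6 h differed from that at 2 h in 27 of 3271 bins, 5 higher and 22 lower (2.22% of all bins and 0.883% of bins outside detained introns). For TMG, the times differed in 0 of 3555 (0.00666%). Each drug and time has its own DMSO libraries, which differ between tables as given above. ATXN7L2_E008 had a difference of -2.06 ± 0.26 between OSMI-2 and TMG at 6 h (SE; edgeR adjusted p = 4.93e-05) and of -2.02 ± 0.39 between 6 h and 2 h of OSMI-2 (edgeR adjusted p = 0.0109). Of the 159 rarely used extensions, 34 of 132 tested had a lower effect with OSMI-2 than with TMG at 6 h and 1 a higher one. Over all bins outside detained introns, 1.73% were lower and 0.841% higher. The 159 bins were chosen for low use in DMSO libraries that are part of this difference, so this count is a description and no test.

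Genes that choose splice sites were looked at in lists, scaled by TMM over genes. With OSMI-2 for 6 h, 0 of 12 genes of 5′ splice site recognition, 1 of 22 of 3′ splice site and branch point recognition, 1 of 19 SR proteins and kinases, 1 of 24 hnRNP proteins and 2 of 8 O-GlcNAc genes passed, all lower, against 3.44% of all genes (20 higher and 409 lower). These were PHF5A, a U2 subunit, at -1.59, SRSF5, an SR protein, at -1.36, HNRNPC at -1.77, MGEA5 at -2.18 and OGT at -2.11. With detained introns counted in the scaling, all genes split into 313 higher and 293 lower, and with median-of-ratios factors into 91 and 466; the median log2 change of all genes was -0.10, 0.15 and 0.00 in turn. All 5 also passed, lower, under both other scalings. With OSMI-2 for 2 h no gene passed (0.0% of all genes). With TMG for 2 h, PRPF39, SLU7, CLK2, SRSF10, MGEA5 and GNPNAT1 rose by 0.17 to 0.24 on the log2 scale, 6 of 85 listed genes tested, against 6.19% of all genes. With detained introns counted in the scaling, CLK2 and SRSF10 alone of these passed. With TMG for 6 h, SF1, which binds the branch point, rose by 0.39, TRA2B by 0.18 and MGEA5 by 0.74, and HNRNPD, HNRNPDL and OGT fell by 0.19, 0.26 and 0.46, against 5.92% of all genes.

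Of the 27 bins of highest share, 3 in each class, PRRT3_E002, described above, was the 1 that passed in any of the 4 tables. SP1_E003, a 1513-base upstream 3′ extension in the gene of a general transcription factor, held 59.6% to 64.0% of its gene's counts as the mean of each DMSO group and 58.9% to 66.1% as the mean of each treated group. NLRP1_E001, in an inflammasome sensor gene, held 80.4% to 86.4% and 79.4% to 85.5%, and the 3-base UBL5_E004, in a ubiquitin-like protein gene, 13.5% to 14.3% and 13.4% to 14.2%. UBOX5+FASTKD5_E006, in a merged pair of genes, was at 18.5% in 6 h DMSO and 8.23% with OSMI-2 and missed the threshold (edgeR adjusted p = 0.0580, n = 3 and 2), while its difference between OSMI-2 and TMG passed (-1.41, edgeR adjusted p = 0.0250); it was at 40.5% to 48.9% in the DMSO libraries of the TMG tables.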

How the data were processed

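RNA was measured in HEK293T cells as polyadenylated RNA with a stranded Illumina kit, per the labels' protocols; the extraction reagent of each sample is not given in the sources used here. The deposited tables give raw counts per bin and library, and STAR and hg19 are named in the submitters' processing notes; the counter, annotation and strand setting are not given in the sources used here. The deposited tables also hold the authors' own p-value and log2 fold change per bin, used only as an alternative. The columns carry letters a to c. The bins and gene lists were chosen with earlier results of these data known.

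Each bin with a mean of 10 or more counts, in a gene with 10 or more other counts, was tested with edgeR 4.0.16 (R 4.3.3) quasi-likelihood, treated against DMSO within a table, with the log of the gene's other counts outside detained introns plus 1 as offset. Adjusted p-values (Benjamini-Hochberg) cover all bins of a table, with a threshold of 0.05, and the SE is the log2 change over the square root of F. Differences of effects were tested in 1 fit over both tables. The procedure was tested on simulated data with the same spread for every bin and changes only in bins with a mean of 50 or more counts. It therefore does not cover changes in bins with fewer counts, which made up 90 of the 117 falls with OSMI-2 at 6 h. Alternatives were DESeq2 1.42.0, limma 3.58.1, other minimums, denominators and scalings, 1 fit of all libraries, and each library left out. Named bins are, per table and class, the 5 largest rises and 5 largest falls past the threshold with 50 or more counts and libraries apart, those called in 2 or more tables, in OGT or MGEA5 or called in a listed gene, and the 3 of highest share per class. Total counts per library of 39.5 M to 100.2 M set the precision.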

Additional observations from a re-analysis of the deposited data

Results flagged for a closer look

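The effects of OSMI-2 and TMG at 6 h differed by a direct test (edgeR, adjusted p under 0.05) in 121 alternative splice site bins. Among the named bins, the log2 effect of OSMI-2 minus that of TMG was negative in 16. It was -2.36 in SF3A1_E013, -2.25 in HMGN2_E004, -2.23 in ZNF783_E023, -2.06 in ATXN7L2_E008, -2.06 in SNRNP200_E018, -1.90 in PPP1R16A_E006, -1.79 in RBM39_E005 and -1.77 in PRPF8_E008. It was -1.70 in CEP164_E042, -1.69 in METTL17_E014, -1.68 in MARCH6_E014, -1.65 in NPDC1_E005, -1.60 in NPDC1_E003, -1.46 in RPS18_E002, -1.41 in UBOX5+FASTKD5_E006 and -1.32 in MAPK12_E007. It was positive in MAPK12_E039 (1.42), PCBP2_E002 (1.29), TPM4_E001 (0.95), POLG2_E012 (0.94), DDX52_E002 (0.88), RIOK1_E001 (0.63), OGT_E002 (0.58), SCO1_E007 (0.57), STAMBP_E008 (0.49), HSPA1B_E002 (0.46), BMS1P20_E001 (0.46) and HMGB3_E005 (0.31).

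The effects of OSMI-2 at 6 h and 2 h differed in 27 bins. Among the named bins, the log2 effect at 6 h minus that at 2 h was -2.61 in RBM39_E005, -2.02 in ATXN7L2_E008, -1.99 in CEP164_E042, -1.94 in METTL17_E014, -1.75 in HMGN2_E004, -1.58 in PPP1R16A_E006, -1.37 in NPDC1_E005 and 1.40 in MAPK12_E039. In RBM39_E005 the difference also holds higher OSMI-2 values at 2 h, as given above.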

How the results depend on the processing

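No paired analysis was possible because the columns carry letters and no replicate numbers. Of 78 named results past the threshold, 15 kept call and direction under every alternative run, among them the falls of ATXN7L2_E008, RBM39_E005, CEP164_E042 and PPP1R16A_E006 with OSMI-2 for 6 h. For the other values below, the cause was not tested. The count for OSMI-2 at 2 h (0) was 1 with all libraries in 1 fit, 1 in the authors' deposited table and 0 to 1 with a library left out. The count of 143 for OSMI-2 at 6 h was 86 with DESeq2 (8 higher, 78 lower), 30 with limma (2 and 28), 45 with a minimum of 50 counts (20 and 25), 241 in the authors' deposited table (68 and 173) and 51 to 146 with a library left out. The count of 5 for TMG at 2 h was 0 against abutting bins, with DESeq2, with limma and with all libraries in 1 fit, 2 with a minimum of 50 counts, 53 with median-of-ratios factors, 52 with TMM, and 1 to 6 with a library left out. The count of 1 for TMG at 6 h was 0 against abutting bins, with limma, with a minimum of 50 counts, with all libraries in 1 fit and in the authors' deposited table, 2 with no minimum, 20 with median-of-ratios factors, 17 with TMM and 0 to 2 with a library left out. The 121 differences between OSMI-2 and TMG at 6 h were 60 with limma, 48 with a minimum of 50 counts and 64 to 130 with a library left out. The 27 between 6 h and 2 h of OSMI-2 were 5 with limma, 5 with a minimum of 50 counts, 63 with all libraries in 1 fit and 12 to 43 with a library left out. The other differences were 0 to 0. The 46 falls of rarely used extensions were 10 with limma, 6 of 15 tested with a minimum of 50 counts and 19 to 47 with a library left out. The alternatives for the rarely used extensions, and those for the gene scaling, were chosen after seeing the data. The median deviation of a class (log2, treated minus DMSO) moved with OSMI-2 at 6 h to -0.011 in A3pss_Proximal and 0.032 in A5pss_Distal bins with a minimum of 50 counts, and to -0.045 in A5pss_Distal against abutting bins. With TMG at 2 h it moved to 0.012 and 0.013 against abutting bins. With a library left out it ran, for A3pss_Proximal, from -0.0052 to 0.026, -0.028 to -0.022, -0.00079 to 0.0041 and 0.0058 to 0.013 (OSMI-2 2 h, 6 h, TMG 2 h, 6 h), and for A5pss_Distal from -0.025 to 0.036, -0.013 to 0.022, -0.021 to 0.0048 and -0.018 to 0.0033. The 6 listed genes that rose with TMG at 2 h were 2 with detained introns in the scaling. With counts scaled to library size, which leaves in the change of the gene itself, the log2 change with OSMI-2 at 6 h reversed to -1.50 (median-of-ratios) and -1.59 (TMM) in OGT_E002, -1.84 and -1.93 in OGT_E024, -0.089 and -0.17 in POLG2_E012, -0.12 and -0.20 in COX11_E007 and 1.14 (median-of-ratios) in COBLL1_E003. Against abutting bins it reversed to -0.17 in MAPK12_E039, -0.15 in STAMBP_E008 and -0.00083 in TROAP_E002. Most falls rest on under 50 counts, which limits their precision.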

Other observations

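MTOR_E042 had counts in some libraries and almost none in others of the same group, and IFT172_E034 was high in all 6 TMG libraries and in 2 libraries without TMG. Other extensions with such a pattern were counted after those values were seen. Of 1981 extension bins with 50 or more counts in the shared bin in every library, 10 were at 20% or more of the shared bin in some libraries and at 2% or less in others, and 9 of these were A5pss_Distal bins. GTF3C1_E029, in a gene for a subunit of a polymerase III factor, was high in 7 libraries, 4 of them treated, low in 16 and between in none, and reached 55.3%. DIAPH1_E012, in a gene for an actin-nucleating formin, was high in 4 and low in 19, and reached 41.7%. MTOR_E042 was high in 4 libraries, 1 of them treated, and low in 19. BCORL1_E011, in a gene for a transcriptional corepressor, was high in 1 library, a 6 h DMSO library of the OSMI-2 experiment (38.8%, 71 counts), and low in 22.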
